A study of Gallus gallus with 8 samples.

Results

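Peaks on the sex chromosomes Z and W were examined in 8 lists of CUT&Tag peaks from the liver of chicken (Gallus gallus). CUT&Tag cuts and tags DNA around a chromatin protein held by an antibody, by means of a tethered transposase. The members were taken by position alone, as every listed peak whose chromosome name is exactly chrZ or chrW. They numbered 4877 of 69159 peaks, with 4799 on Z and 78 on W. Libraries NT-1 to NT-4 came from livers of birds kept at normal temperature, and HT-1 to HT-4 from livers after high temperature treatment. Both groups are liver genomic DNA, and no genotype, strain, age, sex, temperature in degrees or length of exposure is given in the sources used here. The series is named for Nrf2, the transcription factor that turns on antioxidant genes. The antibody itself is not named. Nothing in the labels says that each library is a separate bird, so p-values measure the spread between these 8 libraries, which may be technical.

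In birds the male carries a pair of Z chromosomes and the female carries one Z and one W. The Z is a large, gene-bearing chromosome, and birds lack a chromosome-wide silencing of one copy of the kind that mammals apply to X. The W is small, largely heterochromatic and rich in repeats, and only a short stretch of it still recombines with Z. One end of the chicken Z also carries heterochromatin made of tandem repeats.

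All positions are in galGal6, the build named in the submitters' processing notes, and are counted from 1. Chromosome lengths were taken as the highest peak end in any list, 82.5 Mb for Z, 6.66 Mb for W and 757.8 Mb for chromosomes 1 to 10 together. The genes and the sequence at these positions were not analysed here. The lists give no read counts, so the read depth behind each peak is unknown. List sizes ran from 7550 to 10599 peaks, each list starts at its own lowest score, and 937 peaks have the same start and end in HT-1 and HT-3, of which 75 lie on Z and 0 on W.

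Peaks on Z were about as dense as on the large autosomes in 6 libraries and sparser in NT-4 and HT-1. NT-1, NT-2, NT-3 and NT-4 held 622, 726, 743 and 485 peaks on Z, or 7.54, 8.80, 9.0 and 5.88 peaks per Mb. HT-1, HT-2, HT-3 and HT-4 held 423, 583, 614 and 603 peaks on Z, or 5.13, 7.07, 7.44 and 7.31 per Mb. NT-4 and HT-1 had the lowest Z densities of the 8 libraries, although NT-4 had the highest density on chromosomes 1 to 10. That density was 7.76, 8.76, 9.75 and 10.5 per Mb in NT-1 to NT-4 and 6.94, 7.27, 7.81 and 7.46 per Mb in HT-1 to HT-4. The density on Z divided by that on chromosomes 1 to 10 was 0.971, 1.00, 0.923 and 0.561 in NT-1 to NT-4 and 0.739, 0.972, 0.953 and 0.979 in HT-1 to HT-4. The ratio thus lay between 0.923 and 1.00 in 6 libraries, with NT-4 and HT-1 below them.

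**Figure D1:**
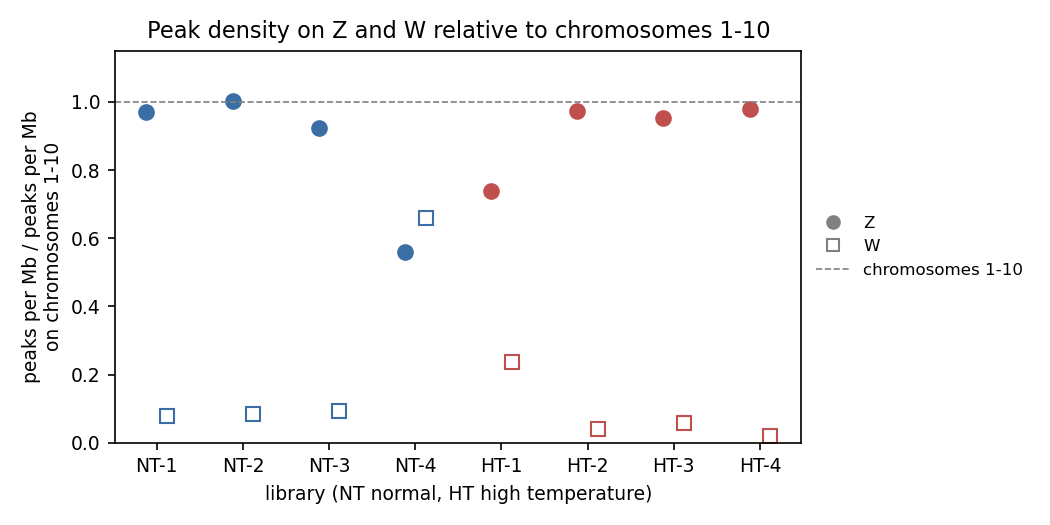
Peaks per Mb on Z (filled circles) and on W (open squares) divided by peaks per Mb on chromosomes 1 to 10, 1 value per library, blue for normal and red for high temperature; the dashed line marks equal density. Z lies between 0.923 and 1.00 in 6 libraries, at 0.561 in NT-4 and at 0.739 in HT-1, and W reaches 0.659 in NT-4 and 0.238 in HT-1.

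The ratios of the temperature groups overlapped. The normal temperature mean was 0.865 ± 0.205 and the high temperature mean 0.911 ± 0.115 (SD, n = 4 each), a difference of 0.0459 (exact permutation test, two-sided p = 0.686, adjusted p = 0.83 over 5 measures). The direction rested on NT-4, without which the difference was -0.0555. Each library was also compared with itself. Over the 8 libraries the log2 ratio of Z to chromosomes 1 to 10 averaged -0.20 ± 0.29 (SD, n = 8) and was below 0 in 7 of them. A two-sided exact sign-flip permutation test gave p = 0.0156 and an adjusted p of 0.0469 over 6 measures. Another of these measures, the evenness of spacing given below, had the same p, and without that tie neither would have passed adjustment. The log2 ratio was -0.835 in NT-4 and -0.437 in HT-1, against -0.115 to 0.0056 in the others. NT-4 and HT-1 had been set apart for their low share of Z peaks beforehand, so this test in part restates that choice. Without NT-4 and HT-1 together the log2 ratio was -0.049, with an adjusted permutation p of 0.125. The 6 libraries left allow no p below 0.0312, so the loss of the call was close to fixed in advance.

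Peaks on W ran the other way in the same libraries. NT-1, NT-2, NT-3 and NT-4 held 4, 5, 6 and 46 peaks on W, and HT-1, HT-2, HT-3 and HT-4 held 11, 2, 3 and 1. The W density divided by that of chromosomes 1 to 10 was 0.659 in NT-4 and 0.238 in HT-1, and 0.0201 to 0.0924 in the other 6 libraries. In NT-4 the density on W, 6.91 per Mb, was above its density on Z. In HT-1 the W density was 1.65 per Mb, below its Z density of 5.13. The libraries with the lowest Z ratios were therefore those with the highest W ratios. No label gives the sex of a bird, and its part in these values was not tested.

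The 46 W peaks of NT-4 were spread along the chromosome. The 6 complete bins of 1 Mb held 4 to 10 of them, and the median gap between neighbours was 115.4 kb. Their densest stretch of at most 100 kb held 4 peaks, at chrW:5114158-5195182. Their scores spanned the list, from percentile 8.49 to 99.5, and 20 of the 46 (43.5%) were in the top 25% of scores of NT-4. The highest, at chrW:4182140-4182389 with a score of 347.22, ranked 56 of 10599. HT-3 also had a W peak among its 100 highest, at chrW:1998217-1998416 with rank 51 of 8253. The highest W peak of NT-1, at chrW:6494735-6494934, ranked 122 of 8262, and the single W peak of HT-4, at chrW:750104-750303, ranked 3509 of 7790. The best W ranks of HT-1, HT-2, NT-2 and NT-3 were 385, 787, 1207 and 2046. In HT-1 that rank is shared by 3 W peaks of equal score. A library with few W peaks could thus still place one of them high in its list.

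No W peak overlapped a W peak of another library, so the 78 peaks form 78 separate regions. A count of 0 in 78 allows a share of up to 3.85%, by counting error only. Of regions on Z 3.48%, and of all regions 4.16%, were held by 2 or more libraries. Many of those were held by HT-1 and HT-3 alone, and without them the shares were 1.27% and 1.97%. A lower recurrence on W was therefore not detectable against Z or against all regions without that pair. Of the 78 W peaks, 17 lay within 10 kb of a W peak from another library. Among these 17, 11 belonged to the 21 peaks of the 6 libraries other than NT-4 and HT-1. The same count was not made for Z or chromosomes 1 to 10, so it cannot show whether such nearness is particular to W. The densest stretch over all lists, chrW:3588333-3605430, held 5 peaks of 4 libraries in 17.1 kb, with 2 from NT-4 and 1 each from NT-2, NT-3 and HT-3. It was chosen for its density and is given as a description. The longest stretch of W without a peak in any list ran from chrW:4687522-5114157, or 426.6 kb.

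Every library had peaks along most of Z. In 79 of 83 bins of 1 Mb all 8 libraries had a peak, and the 82 complete bins held 36 to 90 peaks over the 8 lists, with a median of 58. The fullest bin ran from 67 to 68 Mb, with 90 peaks and a mean of 1.93% of a library's Z peaks, against 1.21% per Mb if spread evenly. NT-1 to NT-4 had 10, 16, 12 and 7 peaks in it and HT-1 to HT-4 had 16, 9, 13 and 7. The next fullest bins began at 44, 48, 4 and 30 Mb and held 81, 77, 74 and 75 peaks. The emptiest complete bin ran from 58 to 59 Mb, with 36 peaks, 0 to 8 per library. The bins that began at 59, 37 and 32 Mb held 38, 40 and 43 peaks, and the last bin, which is only 515.3 kb long, held 24. The longest stretch of Z without a peak in any list was chrZ:61049795-61267936, 218.1 kb long, where the median gap between peaks of all lists was 11.8 kb.

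**Figure D2:**
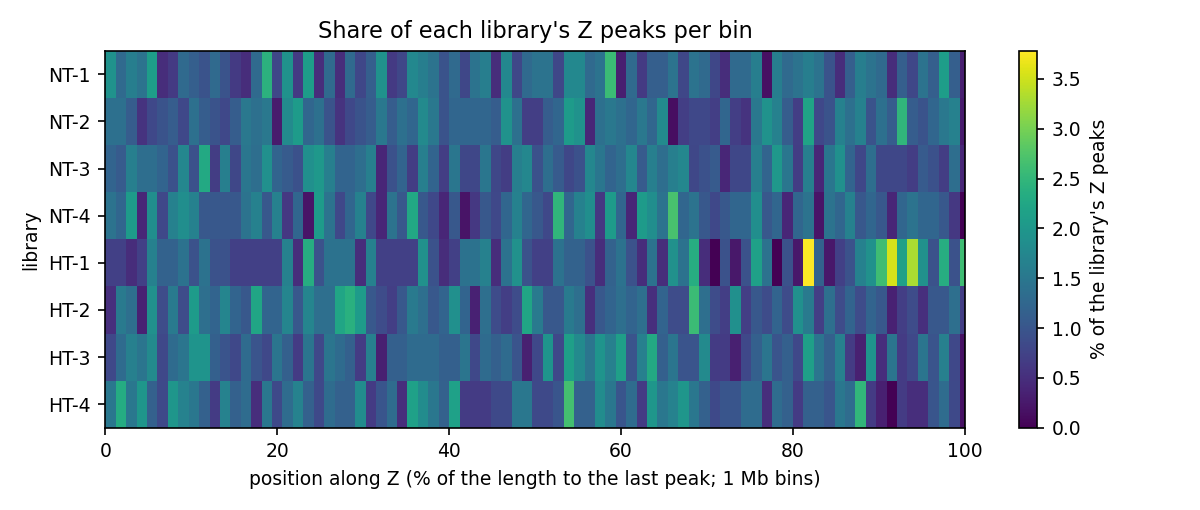
Percentage of each library's Z peaks in each 1 Mb bin, coloured from 0 upward, with position along Z given as a percentage of the length up to the last peak (left to right) and 1 row per library. Bins of single libraries scatter around the even share of 1.21%, with 0 to 16 peaks per complete bin in HT-1 and 1 to 18 in NT-2. The fullest bin of HT-1 is the one from 67 to 68 Mb, and its bins toward the right end are fuller than most of its others.

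Bin shares were only weakly alike between libraries. Across the 82 complete bins, the Pearson correlation of Z shares between pairs of libraries ranged from -0.206 to 0.253 over 28 pairs, with a median of 0.107. The median was 0.0152 in the 12 pairs of the same temperature and 0.111 in the 16 pairs of different temperature. The bins share the mappability and base content of 1 chromosome, and these values are a description.

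No 1 Mb bin of Z separated the temperatures. Over the genome, 1062 bins with at least 8 peaks were tested on their percentage of the library's peaks. In 15 of them (1.41%) every high temperature library lay above every normal one, and in 13 (1.22%) every one lay below. On Z these counts were 0 and 0 of 83 bins. Each pattern is 1 of the 70 possible assignments of the libraries, a rate close to both genome shares. With shares this low, 0 of 83 bins does not set Z apart from the genome. After Benjamini-Hochberg adjustment of the two-sided exact permutation p-values, 0 of 1062 bins (0%) passed 0.05. At an unadjusted p under 0.05 there were 28 bins, 0 of them on Z. Those 28 bins all had the smallest p of the design, 0.0286, which does not pass adjustment when so few of the 1062 bins reach it. On Z the smallest permutation p was 0.0571, adjusted 0.984, in the bins that began at 22 and 56 Mb. In the first, NT-1 to NT-4 held 3, 4, 9 and 4 peaks and HT-1 to HT-4 held 6, 13, 8 and 7. In the second they held 9, 6, 6 and 7 against 10, 15, 6 and 9. The groups overlap in both. limma, fitted to the log2 percentages of all 1062 bins, called 0 bins at an adjusted p under 0.05, with 50 at an unadjusted p under 0.05, of which 1 was on Z.

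In 7 of 8 libraries, peaks on Z were slightly more unevenly spaced than those on the large autosomes. The difference passed adjustment over all 8 libraries, but kept that call in only 1 of 13 alternative settings. It passed only because the log2 density ratio, adjusted together with it, had the same permutation p of 0.0156. That density test in part restates the choice of NT-4 and HT-1, so the pass does not stand by itself. Evenness was measured as the excess variance of peaks per complete 1 Mb bin, the variance minus the mean divided by the squared mean, which is 0 for independent, evenly placed peaks. On Z it was 0.0332, 0.0178, 0.0074 and 0.0111 in NT-1 to NT-4 and 0.182, 0.0205, 0.0095 and 0.0407 in HT-1 to HT-4. HT-1 lay far above the other 7 libraries, which reached at most 0.0407. Over the first 74 Mb of Z alone, a limit set after the bins had been seen, the excess variance was still 0.108 in HT-1. In the other 7 it was then at most 0.0364. On chromosomes 1 to 10 it was 0.0613 in HT-1 and at most 0.0128 elsewhere. Z minus chromosomes 1 to 10 was 0.0280 on average, above 0 in 7 of 8 libraries (two-sided exact sign-flip permutation p = 0.0156, adjusted p = 0.0469). Without HT-1 the mean difference was 0.0147 (adjusted permutation p = 0.0625), and without the terminal 500 kb of each chromosome the adjusted permutation p was 0.398.

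The share of Z peaks at the outer end of Z set HT-1 apart. In HT-1, 86 of 423 Z peaks (20.3%) lay beyond 74 Mb, in the last 8.52 Mb, where the other 7 libraries had 5.31% to 11.7% of theirs. This limit was drawn after the bins had been seen, so the values are a description. The density there was 10.1 per Mb in HT-1 and 3.76 to 9.98 per Mb in the others, with NT-2 the highest of these. Relative to chromosomes 1 to 10 it was 1.46 in HT-1, 1.14 in NT-2 and 0.448 to 0.923 in the other 6. In the first 74 Mb the ratio of HT-1 was 0.656, lower than over the whole of Z, that of NT-4 was 0.573, and the other 6 had 0.952 to 1.03. The last 8.52 Mb of each of chromosomes 1 to 10 was 1.17 times as dense as the rest of those chromosomes in HT-1 and 1.02 to 1.10 times in the others. The last 500 kb of Z held 11 peaks in HT-1 and 0 to 4 in the others. Of the 86 outer peaks of HT-1, 65 (75.6%) were wider than 250 bp against 57.6% of its inner ones, and 11.6% were in the top 25% of its scores against 29.1% of the inner ones. Peaks with the same start and end in HT-3 were 7 of the 86 outer ones (8.14%) and 68 of the inner ones (20.2%). Among the Z peaks of HT-3 the identical share was not smaller at the outer end, with 13.5% of outer and 12.1% of inner ones. The outer peaks of HT-1 were thus wider and lower in score than its inner ones, and a smaller share of them was identical in HT-3. Neither width nor score was particular to HT-1 in this. The wide share was also larger in the outer stretch in every other library except NT-1, though these 7 held only 1 to 7 wide outer peaks each. In HT-3 it was 13.5% against 3.20%, and in NT-1 1.64% against 2.50%. The outer share in the top 25% of scores was also lower in NT-2, NT-3, NT-4 and HT-2, and higher in NT-1, HT-3 and HT-4.

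**Figure D3:**
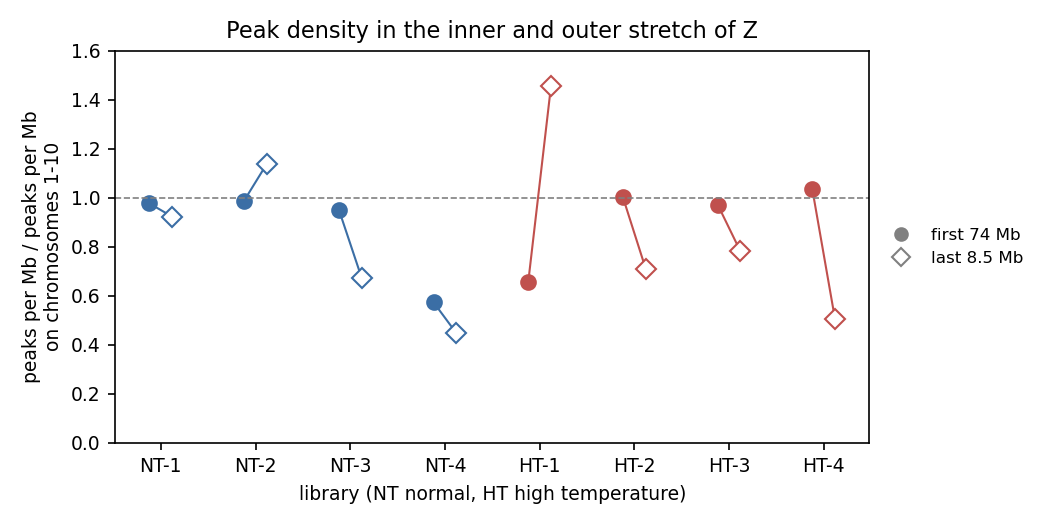
Peak density on Z relative to chromosomes 1 to 10 in the first 74 Mb (filled circles) and the last 8.52 Mb (open diamonds) of Z, 1 pair of values per library, joined by a line. HT-1 rises from 0.656 to 1.46, NT-2 from 0.988 to 1.14, and the other 6 libraries fall toward the end.

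No difference in close neighbours was detected between temperatures or between Z and the large autosomes. A neighbour within 10 kb in the same list was found for 9.16%, 12.9%, 10.1% and 6.19% of Z peaks in NT-1 to NT-4 and for 13.5%, 9.61%, 7.98% and 10.6% in HT-1 to HT-4. NT-4, with the largest median gap (113.7 kb), had the lowest share, while HT-1, with a median gap of 106.8 kb, had the highest. The temperatures differed by 0.821 percentage points (two-sided exact permutation p = 0.686, adjusted p = 0.83). The sign turned without NT-4 (-0.317), without HT-1 (-0.198), without both (-1.34), with the upper 50% of peaks by score (-0.147) and for neighbours within 50 kb (-3.87). Z minus chromosomes 1 to 10 was -1.45 points (exact sign-flip permutation p = 0.25, adjusted p = 0.375). NT-4 had 6.19% on Z and 14.7% on chromosomes 1 to 10, a difference of -8.50 points. The other libraries lay between -2.50 and 2.21 points, and without NT-4 the mean was -0.439. The densest 100 kb of Z held 5 or 6 peaks in each library, at a different place in each. HT-4 had the tightest, with 6 peaks in 50.4 kb at chrZ:72689139-72739586, and NT-3 had 6 in 82.2 kb at chrZ:9426836-9508987. Over all lists the densest stretch was chrZ:21767220-21866942, with 18 peaks of 7 libraries.

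Most Z peaks were 200 or 250 bp wide, and the share of wider ones was larger in each high temperature library than in any normal one, a difference that did not pass adjustment. Peaks wider than 250 bp made up 2.41%, 1.65%, 2.15% and 2.47% of Z peaks in NT-1 to NT-4 and 61.2%, 4.97%, 4.07% and 6.30% in HT-1 to HT-4. In numbers these were 15, 12, 16 and 12 peaks against 259, 29, 25 and 38. The groups did not overlap on Z. The means were 2.17% ± 0.374 and 19.1% ± 28.1 (SD, n = 4 each). Their difference of 17.0 points reached the lowest p of this design, 0.0286 in the two-sided exact permutation test, and 0.143 after adjustment over 5 measures. Without HT-1 the difference was 2.94 points, with the 3 other high temperature libraries still above all 4 normal ones. Without any 1 normal library the difference was 16.8 to 17.1 points and the groups still did not overlap. The exact permutation p was then 0.457 (adjusted 0.607 to 0.762). With the upper 50% of peaks by score the difference was 7.32 points. On chromosomes 1 to 10 the groups overlapped, with 2.09%, 1.14%, 2.94% and 5.97% against 61.1%, 3.70%, 3.84% and 4.93%. NT-4 was the library that differed, at 2.47% on Z and 5.97% on chromosomes 1 to 10. Over the 8 libraries Z minus chromosomes 1 to 10 was -0.055 points (exact sign-flip permutation p = 0.945, adjusted p = 0.945).

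Single wide peaks on Z were few outside HT-1. Above 500 bp there were 3, 0, 4 and 1 on Z in NT-1 to NT-4 and 95, 1, 3 and 4 in HT-1 to HT-4. The groups overlap at this width, and the mean share differed by 5.64 points (exact permutation test, adjusted p = 0.643). The widest was in HT-4, 2800 bp at chrZ:34404623-34407422, with a score of 168.06 and rank 660 of 7790. The widest of HT-1 was 1125 bp at chrZ:25609568-25610692, with a score of 36.27 and rank 7127 of 7550. The widest of HT-2, 778 bp, lay in the outer stretch at chrZ:77758481-77759258. Those of NT-1 to NT-4 were 645, 499, 679 and 636 bp wide and that of HT-3 602 bp. Except in NT-4 and HT-4, the widest Z peak of a library scored low in its list, at percentile 26.8 or below.

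The highest Z peak of each library lay at a different place, at ranks 4 to 40 of its list. A best rank depends on how many peaks a chromosome holds, here 423 to 743 on Z per library. The more numerous peaks of chromosomes 1 to 10 had best ranks of 1 to 3. The score is the authors' value, of unknown scale, and was used only as a rank within 1 list. The highest Z peak ranked 4 in NT-2 (chrZ:50281752-50282001) and 4 in HT-3 (chrZ:35887269-35887468). It ranked 18 in HT-4 (chrZ:44166377-44166626), 23 in NT-4 (chrZ:8347570-8347819) and 24 in HT-1 (chrZ:67234248-67234497). It ranked 31 in NT-3 (chrZ:70498384-70498633), 37 in HT-2 (chrZ:72954140-72954339) and 40 in NT-1 (chrZ:36978401-36978650). All 8 were 200 or 250 bp wide and lay at 8 different places. Only those of HT-1 and HT-3 overlapped a peak of another library. Among the 100 highest peaks of each list, 2, 12, 6 and 4 lay on Z in NT-1 to NT-4 and 3, 7, 6 and 6 in HT-1 to HT-4. Of all peaks in the lists, Z held 7.53%, 8.10%, 7.36% and 4.58% in NT-1 to NT-4. In HT-1 to HT-4 it held 5.60%, 7.62%, 7.44% and 7.74%. Only the count of NT-2 lay above the Z share of its whole list.

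No difference in score rank was detected over the 8 libraries between Z and the large autosomes, and NT-4 had the widest gap. The share of Z peaks in the top 25% of their list was 22.2%, 25.3%, 23.7% and 32.4% in NT-1 to NT-4 and 25.5%, 24.4%, 26.5% and 23.1% in HT-1 to HT-4. The temperatures differed by -1.03 points (two-sided exact permutation p = 0.83, adjusted p = 0.83), a sign that turned to 1.13 without NT-4. Z minus chromosomes 1 to 10 averaged 1.34 points (exact sign-flip permutation p = 0.359, adjusted p = 0.431). In NT-4 the shares were 32.4% on Z and 23.7% on chromosomes 1 to 10.

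The lowered density of NT-4 was uneven over the score. From the lowest to the highest 25% of its scores, the Z to chromosomes 1 to 10 ratio was 0.362, 0.730, 0.348 and 0.764 in NT-4. In HT-1 it was 0.804, 0.769, 0.669 and 0.719, below 1 throughout. In the other 6 libraries it ran from 0.83 to 1.18, leaving out 1 stratum of NT-2 that held only 26 autosomal peaks because of ties. Scores fall on few levels: the 726 Z peaks of NT-2 had 26 different scores, and 342 of them had the score 75.93. In NT-4, 109 of 485 Z peaks (22.5%) had the score 140.65, against 10.0% of its peaks on chromosomes 1 to 10, a gap of 12.4 points. Another 34 (7.01%) had the score 174.16, against 1.98%. In each of the other 7 libraries, the score level most in excess on Z exceeded its autosomal share by 0.783 to 2.63 points. Of the 46 W peaks of NT-4, 2 had the score 140.65 and 0 had 174.16. The Z peaks of NT-4 were thus spread over its score levels in other shares than its autosomal peaks, and the level of 140.65 lies at percentile 49.6 of the list, inside the second stratum.

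**Figure D4:**
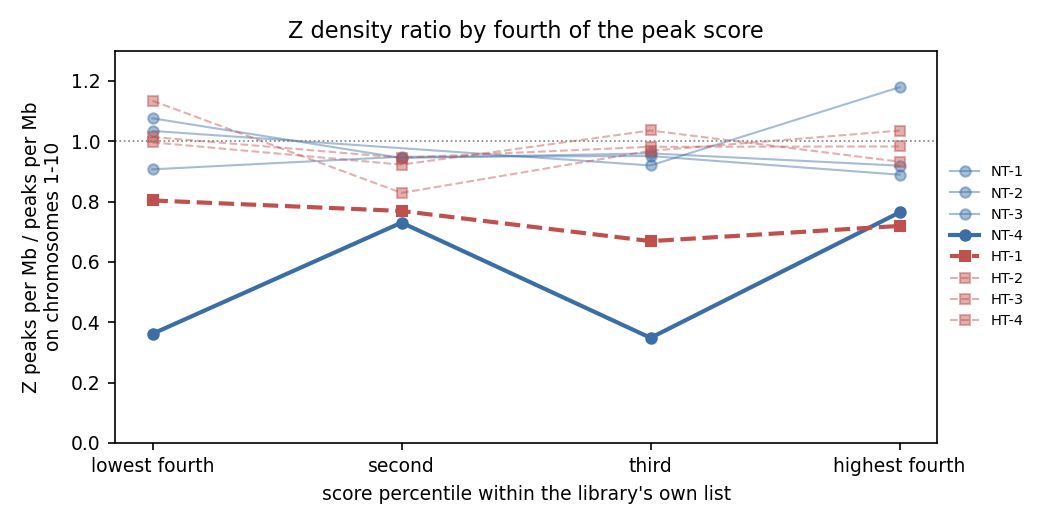
Density of Z peaks relative to chromosomes 1 to 10 in each 25% of the library's own scores, from lowest to highest, 1 line per library (blue circles for normal, red squares for high temperature; NT-4 and HT-1 in bold). NT-4 alternates between 0.348 and 0.764 and HT-1 stays between 0.669 and 0.804, while the other libraries lie around 1; a stratum of NT-2 with 26 autosomal peaks is not drawn.

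Peaks on Z rarely recurred between libraries. Merging all peaks with 1 bp or more in common gave 4633 regions on Z, of which 4472 (96.5%) were held by 1 library. Regions held by at least 2 libraries numbered 161 (3.48%), and 102 of these were held by HT-1 and HT-3 alone. Leaving those out, 59 remained, or 1.27% of Z regions, against 1.82% on chromosomes 1 to 10. A pair of libraries other than HT-1 with HT-3 shared 0 to 8 Z regions, with a median of 2 over 27 pairs, 5 of which shared 0. No Z region was held by 4 or more libraries, against 18 of 48131 (0.0374%) on chromosomes 1 to 10 and 45 of 13185 (0.341%) on all other sequences. A count of 0 in 4633 allows a share of up to 0.0648%, which includes the autosomal 0.0374% but not the 0.341%. This limit covers counting error only.

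The 5 Z regions held by 3 libraries all included HT-1 and HT-3. The region at chrZ:63102425-63103160 (736 bp) was held with NT-2, at ranks 1207 in NT-2, 3823 in HT-1 and 66 in HT-3. The region at chrZ:527299-527614 (316 bp) was held with NT-1, at ranks 2501, 385 and 2271 in NT-1, HT-1 and HT-3. The region at chrZ:45192463-45192875 (413 bp) was held with NT-2, the region at chrZ:56112235-56113572 (1338 bp) with HT-4, and the region at chrZ:61650247-61650932 (686 bp) with NT-1. In the last of these the peaks of NT-1 and HT-3 did not overlap each other. They were joined by the peak of HT-1, which overlapped both. In the regions that begin at 527299, 45192463 and 56112235 the peaks of HT-1 and HT-3 had the same start and end.

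Overlap with another library was found for 2.25%, 3.03%, 1.75% and 2.27% of Z peaks in NT-1 to NT-4 and for 27.2%, 2.57%, 19.4% and 2.99% in HT-1 to HT-4. HT-1 and HT-3 stood apart from the other 6. The normal temperature mean was 2.32% ± 0.528 and the high temperature mean 13.03% ± 12.3 (SD, n = 4 each; two-sided exact permutation p = 0.0857, adjusted p = 0.214). The difference of 10.7 points was 0.351 without HT-1 and 0.710 without HT-3. On chromosomes 1 to 10 the shares were 3.69%, 3.99%, 3.42%, 3.6%, 24.7%, 3.61%, 20.9% and 3.93% in the same order, higher than on Z in 7 libraries. Z minus chromosomes 1 to 10 was -0.801 points (two-sided exact sign-flip permutation p = 0.148, adjusted p = 0.297). With the peaks identical in HT-1 and HT-3 removed it was -1.59 points and Z was the lower in 8 of 8 libraries (exact permutation p = 0.0078, the smallest possible, adjusted p = 0.0312). The Z shares of HT-1 and HT-3 were then still 11.5% and 8.16%, against 1.75% to 2.89% in the others. An overlap counts in each library that holds it. The 8 library values are therefore not independent, and the p-values of this measure are a description. Among the upper 50% of peaks by score the mean difference was 0.058 points, with HT-1 6.41 points higher on Z and the other 7 libraries lower, so the direction of the mean rested on HT-1.

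**Figure D5:**
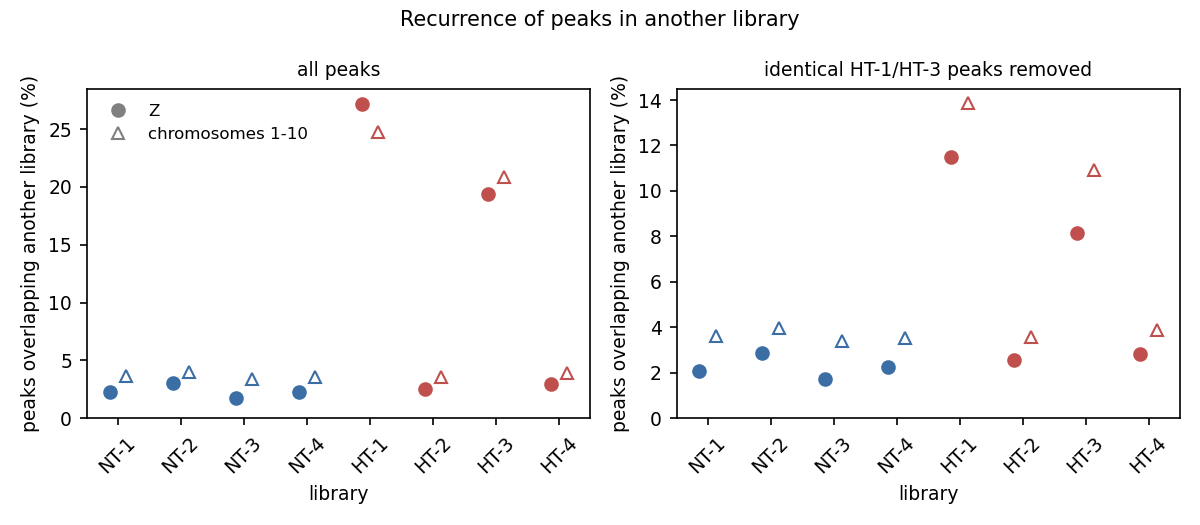
Percentage of peaks that overlap a peak of another library by at least 1 bp, on Z (filled circles) and on chromosomes 1 to 10 (open triangles), 1 pair per library, with all peaks on the left and without the peaks identical in HT-1 and HT-3 on the right; the 2 vertical axes differ. On the left Z is the lower in 7 of 8 libraries, and on the right in 8 of 8.

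The identical peaks of HT-1 and HT-3 did not share the low Z density of HT-1. The 75 on Z were 17.7% of the Z peaks of HT-1 and 12.2% of those of HT-3. Their density on Z was 1.04 times that of the 662 identical peaks on chromosomes 1 to 10. The 348 other Z peaks of HT-1 had a ratio of 0.695, and the 539 other Z peaks of HT-3 had a ratio of 0.942. Of the 75, 88.0% were 200 or 250 bp wide, where 34.8% of all Z peaks of HT-1 were, and 57.3% were in the top 25% of scores of HT-1, against 18.7% of its other Z peaks. The identical peaks of chromosomes 1 to 10 were much the same, with 83.7% at 200 or 250 bp. There 60.4% were in the top 25% of scores of HT-1, against 21.3% of its other peaks. A peak counted as identical has to be listed in HT-3 as well, where 92.2% of Z peaks were 200 or 250 bp wide. Its Z share and its width are thus tied to those of HT-3, and these values are a description.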

How the data were processed

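Each library has a deposited BED-like peak list without a header, in 5 columns: chromosome, start, end, a peak name of the form MACS writes, and the authors' score, of unstated scale. The submitters' processing notes name cutadapt 1.9.2 and Bowtie2 2.2.4, with no role given. The peak caller's version, its thresholds, the handling of duplicates and any control are not given in the sources used here. Starts were read as counted from 0.

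Peaks were placed in bins by their centre. Scores became percentiles within a list, ties at their mean. Groups were compared by two-sided exact permutation over 70 assignments (smallest p 0.0286), and Z with chromosomes 1 to 10 by exact sign flips over 256 assignments (smallest p 0.0078). Benjamini-Hochberg adjustment was over 5 and 6 measures and, for bins, over the whole genome (0.05). limma 3.58.1 used log2(percentage + 0.005). The code was tested on simulated data. Regions were named by rule: those held by most libraries, the highest and widest peak per list, the densest windows of 100 kb, the fullest and emptiest bins and the longest gap. The members, measures and lists were chosen with earlier results of these data known. Genes were not named and the tissue was not checked against marker genes, since the annotation at hand is of another assembly. Software was R 4.3.3 and, under Python 3.11.15, scipy 1.17.1, pandas 2.3.3, numpy 2.4.6 and matplotlib 3.10.9.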

Additional observations from a re-analysis of the deposited data

Results flagged for a closer look

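Single libraries lay far from the other 3 of their temperature in 3 values, out of 14 groups of values on Z and W that were examined, where chance sets apart about 1 in 20. NT-4 and HT-1 had been set apart for their low share of Z peaks before these values were examined, so the Z ratio of HT-1 restates that choice and the chance rate does not apply to it. The Z to chromosomes 1 to 10 density ratio of HT-1 was 0.739 against 0.953 to 0.979 in the other high temperature libraries. The share of Z peaks wider than 250 bp in HT-1 was 61.2% against 4.07% to 6.30%. This was not particular to Z, since on chromosomes 1 to 10 it was 61.1% against 3.70% to 4.93%. The W to chromosomes 1 to 10 density ratio of NT-4 was 0.659 against 0.0774 to 0.0924 in the other normal temperature libraries. All 3 rest on the peak lists used above, and those of HT-1 share a library. The 14 groups share libraries and peaks, so the chance rate is only a rough guide. Just under the limit used lay the W ratio of HT-1, 0.238 against 0.0201 to 0.0577. So did the excess variance of HT-1 on Z, 0.182 against 0.0095 to 0.0407, and the Z ratio of NT-4, 0.561 against 0.923 to 1.00.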

How the results depend on the processing

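The lists hold no counts, so depth limits no value in a known way, and with 4 against 4 libraries a single measure at the smallest p does not pass adjustment over 5. Each named difference is high minus normal temperature or Z minus chromosomes 1 to 10, and the cause of a change was not tested unless stated. Omitting each library gave a density ratio difference of -0.0555 to 0.103, a top 25% difference of -2.26 to 1.13 points, a 10 kb neighbour difference of -0.317 to 1.94 points and, for Z minus chromosomes 1 to 10, a log2 density ratio of -0.224 to -0.104, a wide-peak difference of -0.258 to 0.436 points and an excess variance difference of 0.0147 to 0.0324. The log2 density ratio and the excess variance lost their call in each of the 8 omissions (adjusted permutation p 0.0625 to 0.0938), where 7 libraries also allow no p below 0.0156. They lost it too with the upper 50% of peaks (-0.199 and 0.0215), without the terminal 500 kb (-0.195 and 0.0233) and without NT-4 and HT-1 together (-0.0488 and 0.0152), and the excess variance in bins of 2 Mb (0.0178). Without NT-4 and HT-1 together, the 6 libraries left allow no p below 0.0312. The log2 density ratio and the excess variance kept their call without the peaks identical in HT-1 and HT-3 (-0.209 and 0.0375). That setting brought the overlap with another library past the threshold (-1.59 points), in a measure whose library values are not independent. The upper 50% turned the sign of that overlap difference (0.0579). Leaving out the identical peaks also turned the wide-peak difference of Z and chromosomes 1 to 10 to 0.513 points. Without NT-4 and HT-1 together the wide-peak difference of Z and chromosomes 1 to 10 was 0.487 points. In that setting high minus normal temperature was 0.912 points for the top 25% and -1.34 points for neighbours. High minus normal temperature for neighbours was -0.147 with the upper 50% and -3.87 within 50 kb. No bin of Z separated the temperatures with bins of 2 Mb, numbers of peaks, limma or percentages of the chromosome's peaks, the last chosen after seeing the data. With 1 library omitted 1 to 5 Z bins did, the 5 without HT-1, and 8 without NT-4 and HT-1, where smaller groups overlap less: over the genome 5.40% and 9.05% of bins then did. Whether the replicate numbers pair the libraries is unknown. Bins of equal numbers correlated at -0.036 to 0.043 in their deviations, and those of unequal numbers at -0.075 to 0.053. Bin shares were only weakly alike between any libraries, so these values cannot decide it. With the replicate number as a block, 4 of 83 Z bins moved one way in all 4 pairs, against 12.5% over the genome, and no temperature test on Z changed its call, in a design whose smallest p is 0.125.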
